A study of Mus musculus with 123 samples.

Results

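Genes of neurotrophic signalling were followed in dorsal root ganglion (DRG) neurons after sciatic nerve transection (SNT): the neurotrophin receptor genes Ntrk2, Ntrk3 and Ngfr, the sorting receptor gene Sort1, the ligand gene Bdnf, the signalling receptor gene Ret, and the co-receptor genes Gfra1, Gfra2 and Gfra3. They were taken by symbol, 9 of the 24134 genes in the deposited tables. The samples were 117 single DRG neurons and 6 libraries of pooled neurons, prepared with Smart-seq2, a full-length cDNA protocol without molecular identifiers. All mice were 2 months old and uninjured except for transection of the right sciatic nerve, and the control side was the opposite, uncut side, so that no group came from an animal without surgery. The day 3 neurons and the pools came from F1 mice of a CAST/Eij male and a C57BL/6 female, and the day 7 neurons from C57BL/6 mice. By the paper's methods the F1 mice were female and the C57BL/6 mice of both sexes. After removal of the authors' outliers, 18 control-side and 41 SNT-side neurons remained at day 3, and 14 and 33 at day 7. On the SNT side, neurons with at least 500 CPM (counts scaled to a library total of 1000000) of Atf3, a transcription factor gene induced by axon injury, were called Atf3-high and the others Atf3-low.

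The labels name no animal for any neuron, so the neurons of 1 side and day were treated as 1 sample and no test was made between groups of neurons. Their spread is given over cells. Each pool was 1 lysate per side divided into 3 libraries, so the pooled test compares 2 lysates and its p-values cover the spread of library preparation only. Day 7 differed from day 3 in time, in strain and in reads (75 base paired ends against 50 base single ends). By the paper's methods the sex of the mice differed as well, and these differences cannot be told apart. For the pools, the column names and the sample identifiers in the table pair the sides in opposite ways. The column names were used, under which Atf3 stood at 1455 to 1693 CPM in the 3 SNT-side libraries and at 7.79 to 20.4 CPM in the 3 control-side libraries, and under the other pairing every pooled sign would turn.

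Neurotrophins are secreted proteins that signal through Trk receptor tyrosine kinases. Ntrk2 encodes TrkB, the receptor of brain-derived neurotrophic factor (the product of Bdnf), and Ntrk3 encodes TrkC, the receptor of neurotrophin 3. Ngfr encodes p75, which binds all neurotrophins and, together with sortilin (Sort1), their proforms. Ligands of the glial cell line-derived neurotrophic factor (GDNF) family bind a GFRalpha co-receptor that then engages the kinase Ret: GDNF prefers GFRalpha1 (Gfra1), neurturin GFRalpha2 (Gfra2) and artemin GFRalpha3 (Gfra3). In adult DRG, Ret with Gfra2 is known from nonpeptidergic nociceptors, Gfra3 from peptidergic nociceptors, and Ntrk2 and Ntrk3 from large myelinated mechanoreceptors and proprioceptors. Satellite glia and Schwann cells, which surround these neurons, are known to transcribe Ntrk2 and Ngfr as well.

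In GRCm38, Ntrk2 lies at chr13:58806569-59133970 and Bdnf at chr2:109674700-109727007, both on the plus strand. On the minus strand are Ntrk3 at chr7:78175959-78738012, Ngfr at chr11:95568818-95587735, Ret at chr6:118151745-118197718 and Gfra1 at chr19:58235604-58455909. Gfra2 lies at chr14:70890120-70979838 and Sort1 at chr3:108284082-108361511 on the plus strand. The deposited values sum over a gene, so the kinase-bearing and truncated forms of Ntrk2 and Ntrk3 were not separated. Ntrk2, Ntrk3, Gfra1, Bdnf and Sort1 overlap annotated genes on the opposite strand, and since the counting was not stated to use strand, reads of the overlapping parts cannot be told apart.

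Promoter windows from RefSeq (GRCm38.p6, 250 bases before to 50 bases after a start) were matched for 4 of the 9 genes: 7 windows for Bdnf and 1 each for Gfra1, Ngfr and Ntrk2. Of these 4 genes, Bdnf, Gfra1 and Ngfr were higher in the injured pool, and windows of Bdnf and Gfra1 are shown. The Bdnf window shown is the 1 of 7 that matched a motif named below, and the Ngfr window is not shown. Atf3, which splits the neurons, encodes a protein known to bind AP-1 and cyclic AMP response elements (CRE). The AP-1 motif TGACTCA, searched on both strands, was in none of the 10 windows, and 5.2% of all 32851 windows held it. The CRE half-site TGACG, searched on both strands and chosen after the first motif was read, was in 1 of the 10, a Bdnf window, and in 20.8% of all windows. The Bdnf window that holds it, at chr2:109692186-109692485 on the plus strand, begins the match, in capitals, 35 bases before the start. The Gfra1 window, at chr19:58455349-58455648 on the minus strand, has no capitals because neither motif was found. These matches describe letters in a window and are not binding sites.
Bdnf: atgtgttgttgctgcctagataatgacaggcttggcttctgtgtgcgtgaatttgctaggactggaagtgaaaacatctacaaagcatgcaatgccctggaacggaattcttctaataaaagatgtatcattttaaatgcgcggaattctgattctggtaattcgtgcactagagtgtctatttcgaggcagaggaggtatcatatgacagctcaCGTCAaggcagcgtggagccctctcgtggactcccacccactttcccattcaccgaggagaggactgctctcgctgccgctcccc
Gfra1: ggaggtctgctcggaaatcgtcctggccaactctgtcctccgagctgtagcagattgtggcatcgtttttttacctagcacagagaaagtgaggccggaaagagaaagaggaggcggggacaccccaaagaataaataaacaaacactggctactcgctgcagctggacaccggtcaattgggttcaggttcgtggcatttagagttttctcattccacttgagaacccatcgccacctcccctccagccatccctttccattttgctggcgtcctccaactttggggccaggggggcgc

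Total counts were 1148849 to 2003817 in the SNT-side pools, 563462 to 839135 in the control-side pools, and 261351 to 1849130 in the 106 neurons. The neuronal markers Snap25, Tubb3, Uchl1, Rbfox3 and Prph were present in every group of neurons, with a summed level of 6130 to 17490 CPM per cell. The summed level of 10 glial markers was 507 to 14492 CPM per neuron and was led by Apoe. It differed between the pools, at 12636 to 15313 CPM on the control side and 6156 to 6951 CPM on the SNT side, where 1 of the 10 genes had risen and 5 had fallen. Of 6 markers of nonpeptidergic nociceptors 5 had fallen in the SNT-side pool, all 4 markers of C-fibre low-threshold mechanoreceptors (led by Th) had fallen, of 5 markers of peptidergic nociceptors 1 had risen and 3 had fallen, and of 6 markers of large myelinated neurons 3 had risen and 1 had fallen. In a pool, fewer cells of a type and less RNA per cell cannot be told apart. The part of these shifts in the values given below was not tested.

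In the pooled neurons at day 3, the GDNF co-receptor genes moved in opposite directions. Gfra2 was 22.5-fold lower on the SNT side, Gfra3 was 10.8-fold higher and Gfra1 was 6.46-fold higher. Bdnf, Ntrk3, Ngfr and Sort1 were 3.67-, 2.95-, 2.67- and 2.35-fold higher. Of the 9 genes, 7 changed by edgeR's quasi-likelihood test, which asks for an adjusted p under 0.05 and a log2 change over 1 in size, 6 higher and 1 lower. Of the 13509 genes tested 16% changed, 8.85% higher and 7.1% lower. All 9 genes passed the limit on p, as did 24.8% of the genes tested. The median log2 change of the 9 genes was 1.41, and that of all genes tested was 0.02. The libraries of the 2 sides did not overlap for any of the 9, which held for 37.7% of all genes tested.

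For Gfra2, the neurturin co-receptor gene, the control-side libraries held 422, 427 and 471 TMM-scaled CPM and the SNT-side libraries held 21.3, 19.4 and 18.1 CPM. Every SNT-side library was far below every control-side library, and the log2 change was -4.48 (SE 0.19, adjusted p = 6.47e-22). Gfra3, the artemin co-receptor gene, was measured at 19.5, 22.7 and 15.1 CPM on the control side and at 224, 193 and 203 CPM on the SNT side, and its log2 change was 3.4 (SE 0.23, adjusted p = 2.71e-15). Gfra1, the GDNF co-receptor gene, went from 80.5, 113 and 126 CPM to 729, 693 and 643 CPM, and its log2 change was 2.70 (SE 0.16, adjusted p = 5.22e-17). For both genes the lowest SNT-side library was above the highest control-side library by more than the whole spread of either side. Ret, the kinase that all 3 co-receptors share, had 409, 423 and 478 CPM on the control side and 698, 645 and 761 CPM on the SNT side. Its log2 change of 0.69 (SE 0.13, adjusted p = 6.81e-05) passed the p limit and not the limit on the size of the change.

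Among the neurotrophin receptors, Ngfr was at 245, 273 and 235 CPM in the control-side libraries and at 632, 660 and 721 CPM in the SNT-side libraries, and its log2 change was 1.41 (SE 0.14, adjusted p = 6.69e-11). Ntrk3 was at 14.3, 17 and 35.3 CPM on the control side, where 1 library stood above the others, and at 66.3, 59.1 and 71.4 CPM on the SNT side. Its log2 change was 1.62 (SE 0.30, adjusted p = 4.78e-05). Ntrk2 was the lower one on the SNT side, with 270, 218 and 240 CPM on the control side and 135, 150 and 140 CPM on the SNT side. The Ntrk2 log2 change of -0.78 (SE 0.16, adjusted p = 0.000221) passed the p limit only, and the glial markers Apoe, Fabp7, Kcnj10 and Cdh19 had fallen by 1.30 to 1.84 on the log2 scale in the same libraries. Sort1 stood at 11.7, 14.7 and 15.1 CPM on the control side and at 31.9, 29.5 and 36.2 CPM on the SNT side, and its log2 change was 1.24 (SE 0.35, adjusted p = 0.00732). Bdnf, which injured sensory neurons are known to make themselves, was at 39, 34 and 21.9 CPM against 111, 117 and 119 CPM, and its log2 change was 1.85 (SE 0.24, adjusted p = 5.48e-08).

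**Figure D1:**
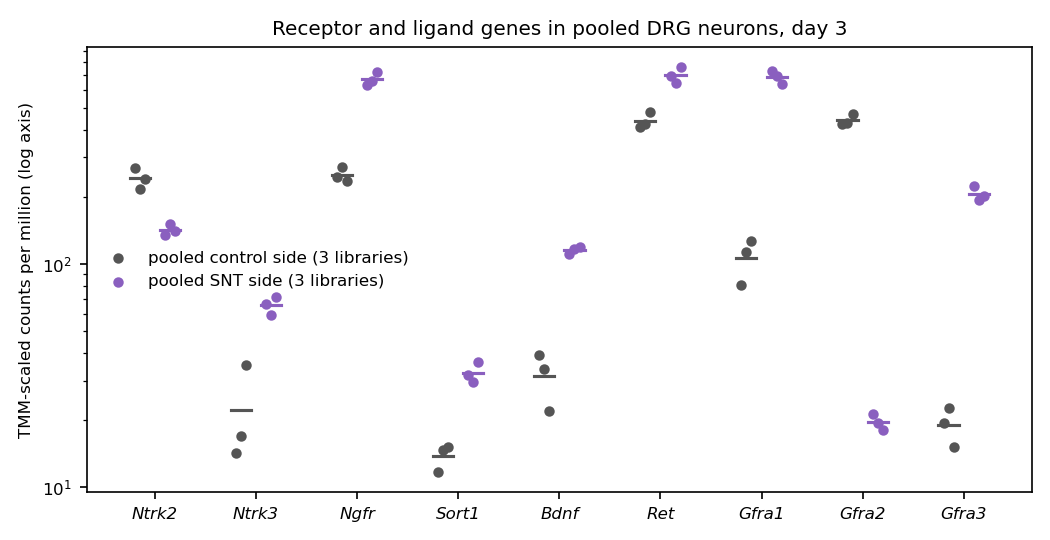
TMM-scaled CPM (log axis) of the 9 genes in the 3 pooled control-side (grey) and 3 pooled SNT-side (purple) libraries at day 3; points are libraries and bars are means. Gfra2 lies at 422 to 471 on the control side and at 18.1 to 21.3 on the SNT side, and Ntrk2 is the only other gene whose SNT-side libraries are the lower ones.

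Per kilobase of merged exon, the order of levels differed between the pools. On the control side Gfra2 was first, at 124 ± 7.58 CPM per kb (SD, n = 3 libraries), followed by Ngfr (72.9 ± 5.66), Ret (64.5 ± 5.37), Gfra1 (23 ± 5.07), Ntrk2 (15.3 ± 1.66), Gfra3 (9.56 ± 1.89), Bdnf (5.08 ± 1.41), Sort1 (2.01 ± 0.27) and Ntrk3 (1.01 ± 0.52). On the SNT side Ngfr was first at 195 ± 13.2 CPM per kb, then Gfra1 (148 ± 9.36), Ret (104 ± 8.54) and Gfra3 (103 ± 8.07), while Gfra2 was seventh at 5.53 ± 0.44. Between neighbours in these orders, Ngfr and Ret on the control side, and Ret and Gfra3 and also Gfra2 and Sort1 on the SNT side, were within their SDs of each other. The merged lengths of Ntrk2 and Ntrk3, 15836 and 22013 bases, sum all annotated exons, and a level over a shorter transcript would be higher.

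In single neurons the 2 days share no cells, but within a day the comparisons of Atf3-high, Atf3-low and all SNT-side neurons share the same control-side neurons. Levels are CPM, and a log2 ratio is that of the group means after adding 1 CPM. At day 3 the Atf3-high neurons (n = 30) had 951 to 4436 CPM of Atf3, the Atf3-low neurons (n = 11) at most 23 CPM and the control-side neurons at most 75.7 CPM, so none lay near the limit of 500 CPM. Against the control side, 4 of the 9 genes were beyond a log2 ratio of 1 in Atf3-high neurons, Gfra3 and Gfra1 higher and Gfra2 and Ngfr lower, where 20.4% of 13656 genes were, 9.21% higher and 11.2% lower. In Atf3-low neurons 2 of the 9 were, Ntrk3 and Gfra2, both lower, where 5.94% of 13452 genes were, 2.08% higher and 3.86% lower. For all SNT-side neurons 3 of the 9 were, Gfra3, Gfra1 and Gfra2, where 13.2% of 13663 genes were, 7.1% higher and 6.07% lower. Between Atf3-high and Atf3-low neurons 4 of the 9 were, with log2 ratios of 3.247 for Gfra3, 1.33 for Ntrk3, -3.08 for Gfra2 and -2.24 for Ngfr, where 21.2% of 13616 genes were, 11% higher and 10.3% lower. The Ntrk3 ratio turned to -1.62 among neurons at or below the median Nefh. The median log2 ratio of the 9 genes against the control side was 0.02, -0.11 and -0.19 in these comparisons and that of all genes was -0.05, -0.03 and -0.04.

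Gfra2 at day 3 ran from 0.80 to 1262 CPM in control-side neurons with a median of 74.2, and its mean was 381 ± 445 (SD over 18 cells). In Atf3-high neurons it ran from 0 to 110 CPM with a median of 7.2 and a mean of 20.7 ± 27.8 (n = 30). Atf3-low neurons spanned 0.80 to 675 CPM with a median of 13.5 and a mean of 182 ± 265 (n = 11). No Atf3-high neuron reached the upper range that the other groups had, and the groups overlapped at low values. The log2 ratio to the control side was -4.14 in Atf3-high and -1.06 in Atf3-low neurons, and without the highest cell of each group or under other settings the latter ranged from -3.47 to 0.94. The 2 control-side neurons highest in Gfra2 (1262 and 1257 CPM) were the only ones of the day with 100 CPM or more of Th (4804 and 4165 CPM). Without them, a range chosen after the data were seen, the control-side mean was 271 ± 329 CPM (n = 16), and the log2 ratio was -3.65 in Atf3-high and -0.57 in Atf3-low neurons. Above the day's median of the neurofilament gene Nefh, a marker of large myelinated neurons, the Atf3-high ratio was -0.86 (16 Atf3-high and 8 control-side neurons). Of the 6 nonpeptidergic markers 5 had a lower mean in Atf3-high than in control-side neurons, such as the receptor gene Mrgprd at 3.67 against 638 CPM, and P2rx3 had a higher one at 988 against 803 CPM.

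Gfra3 had the opposite pattern. At day 3 it was at 0 in 11 of 18 control-side neurons, with a highest value of 539 CPM and a mean of 42.1 ± 129 (SD over cells). Atf3-high neurons ran from 0 to 2535 CPM with a median of 288 and a mean of 591 ± 777, and 13 of the 30 were above every control-side neuron. It was above 10 CPM in 76.7% of them (95% exact binomial interval 57.7% to 90.1%), in 18.2% of Atf3-low (2.28% to 51.8%) and in 22.2% of control-side neurons (6.41% to 47.6%). Among the 11 Atf3-low neurons 1 held 642 CPM and the next highest 23.8 CPM. The log2 ratio to the control side was 3.78 in Atf3-high and 0.53 in Atf3-low neurons, and above the median Nefh the former was 0.96. The intervals cover counting error only.

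Gfra1 was spread widely in every group at day 3. Control-side neurons ran from 0 to 924 CPM with a median of 73.8, Atf3-low neurons from 0.65 to 874 with a median of 192, and Atf3-high neurons from 0.84 to 2007 with a median of 365. Only 4 Atf3-high neurons were above every control-side neuron, although the means differed by a log2 ratio of 1.49 (486 ± 459 against 172 ± 256 CPM). Among neurons at or below the day's median Nefh the ratio turned to -0.37 (14 Atf3-high and 10 control-side neurons). Ret differed little over all neurons: its means were 633 ± 420, 609 ± 329 and 688 ± 304 CPM in control-side, Atf3-low and Atf3-high neurons. All but 1 of these 59 neurons held more than 10 CPM of Ret. Above the median Nefh its log2 ratio to the 8 control-side neurons was 0.98 in 16 Atf3-high and 0.77 in 5 Atf3-low neurons.

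Ngfr did not follow the pools. At day 3 control-side neurons ran from 0 to 4628 CPM with a median of 493 and a mean of 1129 ± 1395, Atf3-high neurons from 0.82 to 1003 with a median of 296 and a mean of 331 ± 243, and Atf3-low neurons from 0 to 6454 with a median of 443 and a mean of 1564 ± 2159. The groups overlapped, but the high values above 1003 CPM were in control-side and Atf3-low neurons and in no Atf3-high neuron. The log2 ratio to control-side neurons was -1.77 in Atf3-high neurons and 0.20 in those at or below the median Nefh. The pools, which were not split by Atf3, gave a log2 change of 1.41. Their like comparison, all SNT-side against control-side neurons, gave -0.77, and -1.30 to 1.09 under the 12 alternatives tried. The peptide gene Calca, a marker of peptidergic nociceptors, moved with Ngfr between these groups, at 4942 CPM in control-side, 5219 in Atf3-low and 542 in Atf3-high neurons, while Adcyap1 of the same list went the other way, at 60.7 CPM in control-side and 558 CPM in Atf3-high neurons. The control-side pool held 251 CPM of Ngfr and 1523 CPM of Calca, both below the means of the control-side neurons. Whether the picked neurons and the pool held different shares of neuron types was not tested.

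The other neurotrophin genes were within a log2 ratio of 1 between Atf3-high and control-side neurons at day 3. Bdnf had medians of 33.9, 53.9 and 21.9 CPM in control-side, Atf3-low and Atf3-high neurons, and its highest values were 767, 537 and 371 CPM. Its log2 ratio between Atf3-high and control-side neurons was -0.94. The pooled log2 change was 1.85, and the pools were not split by Atf3, so their like comparison is that of all SNT-side neurons below. Sort1 was low in all groups, with medians of 10.3, 14 and 16.6 CPM and no neuron above 74.5 CPM. Ntrk3 was at 0 in 8 of 18 control-side, 5 of 11 Atf3-low and 13 of 30 Atf3-high neurons, and the rest reached 155, 39.6 and 144 CPM. The Ntrk3 log2 ratio of Atf3-low to control-side neurons was -1.31 and became 0.04 among neurons at or below the median glial level. Of the 7 genes that changed in the pools, Gfra1, Gfra2 and Gfra3 kept their sign in the comparison of all SNT-side with control-side neurons at day 3, while Ngfr (log2 ratio -0.77), Bdnf (-0.66), Ntrk3 (-0.24) and Sort1 (-0.19) had the opposite sign within overlapping ranges. Under the 12 alternatives tried that sign turned in 7 for Sort1, 4 for Ntrk3, 3 for Ngfr and 3 for Bdnf, and by medians the log2 ratios were 0.53 for Sort1, 0.10 for Ntrk3 and 0.025 for Bdnf.

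Ntrk2 moved with glial transcripts in the picked cells. At day 3 it ran from 0.79 to 371 CPM in control-side neurons (median 36.4), from 1.73 to 176 in Atf3-low (median 41.9) and from 0.66 to 357 in Atf3-high neurons (median 73.3), and the groups overlapped throughout. Across cells its level and the summed level of the 10 glial markers had a Spearman rho of 0.91 on the control side (n = 18) and 0.81 on the SNT side (n = 41). The cells of a side share mice and handling and differ in depth, so the values are a description. The next highest rho with the glial sum at day 3 was 0.63, for Ngfr on the control side. At day 7 the Ntrk2 values were 0.34 (n = 14) and 0.31 (n = 33), and Gfra2 had the highest, at 0.73 on the SNT side. Beyond these cells, the 11 day 3 cells that the authors set aside as outliers held 424 to 1852 CPM of Ntrk2 and 40592 to 100100 CPM of the glial markers.

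**Figure D2:**
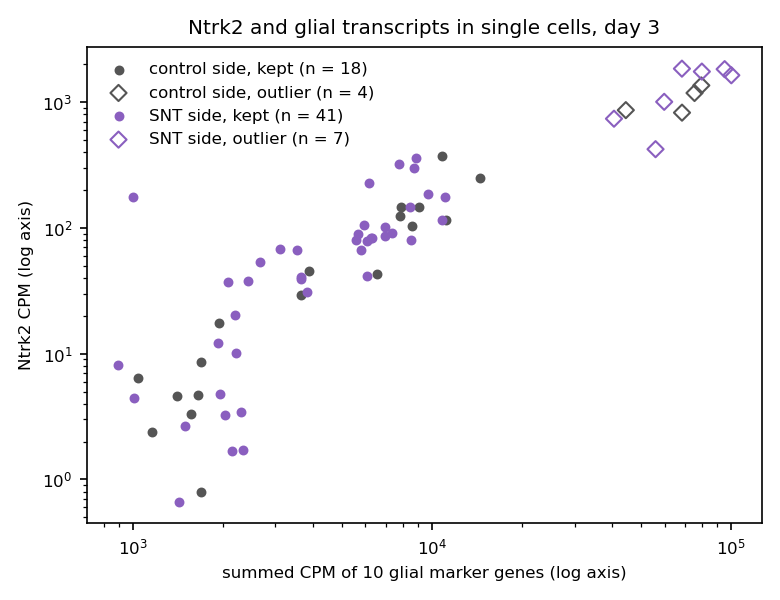
Ntrk2 CPM against the summed CPM of 10 glial marker genes in single day 3 cells, both on log axes; filled points are the 18 control-side (grey) and 41 SNT-side (purple) neurons kept, and open diamonds the 11 outlier cells. Both quantities rise together over the kept cells, and the 11 outlier cells lie between 40592 and 100100 on the glial axis and between 424 and 1852 on the Ntrk2 axis.

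At day 7 the Atf3-high neurons (n = 12) had 704 to 1778 CPM of Atf3 and the Atf3-low neurons (n = 21) at most 13.9 CPM. Most picked neurons had high Nefh: the control-side median was 2640 CPM at day 7 and 91.2 CPM at day 3, so values are not compared between days. Against the control side (n = 14), 4 of the 9 genes were beyond a log2 ratio of 1 in Atf3-high neurons, Gfra1 and Gfra3 higher and Gfra2 and Ngfr lower, where 25.1% of 13122 genes were, 9.48% higher and 15.6% lower. In Atf3-low neurons 5 of the 9 were, Ntrk3 and Sort1 higher and Ret, Gfra1 and Gfra2 lower, where 7.86% of 13277 genes were, 5.05% higher and 2.81% lower. Of these 21 neurons, 6 held 614 to 937 CPM of the proprioceptor gene Pvalb, above every control-side neuron (at most 17.2 CPM). Those 6 held 184 to 408 CPM of Ntrk3, 73.9 to 143 of Sort1, 54.8 to 87.2 of Ret and 6.31 to 56.4 of Gfra1. Gfra2 was at 0 to 15.6 CPM in them. The part of this neuron class in the 5 ratios was not tested. Over all SNT-side neurons 4 of the 9 were, Gfra1 (which turned to -0.62 by medians), Gfra3 and Ntrk3 higher and Gfra2 lower, where 9.86% of 13320 genes were, 6.37% higher and 3.49% lower. Between Atf3-high and Atf3-low neurons 5 of the 9 were, Gfra1, Gfra3 and Ret higher and Ngfr and Gfra2 lower, where 22.7% of 13315 genes were, 7.45% higher and 15.2% lower.

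Gfra1 separated the Atf3-high neurons at day 7. They ran from 827 to 2159 CPM with a median of 1643 and a mean of 1574 ± 435, against 33.3 to 670 CPM on the control side (median 171, mean 224 ± 182) and 0 to 557 CPM in Atf3-low neurons (median 33.3, mean 88.5 ± 135). All 12 were above every other day 7 neuron. Of all genes, 1.22% did not overlap between Atf3-high and control-side neurons and 0.713% between Atf3-high and Atf3-low neurons. The log2 ratio of Atf3-high to control-side neurons was 2.81, and that of Atf3-low to control-side neurons was -1.33, with 11 of 21 Atf3-low neurons below every control-side neuron. With the Atf3 limit at 1000 CPM, which moves 4 neurons to the Atf3-low group, the latter ratio became 0.72.

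Ret was correlated with Gfra1 across the day 7 neurons, but no Atf3-high neuron was above every control-side neuron in Ret. The range of Ret was 232 to 1163 CPM in Atf3-high neurons (median 595), 11 to 782 CPM in Atf3-low neurons (median 75.8) and 1.96 to 1342 CPM in control-side neurons (median 344). The log2 ratio to the control side was 0.56 in Atf3-high and -1.44 in Atf3-low neurons, and between Atf3-high and Atf3-low neurons it was 2.0. Across the 47 neurons Ret and Gfra1 had a Spearman rho of 0.75, and across the 59 neurons of day 3 it was -0.06.

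Gfra2 was low in most day 7 neurons, with a median of 14.5 CPM and a highest value of 638 on the control side, a median of 9.44 and a highest value of 112 in Atf3-low neurons, and a median of 0 and a highest value of 25.4 in Atf3-high neurons. The second highest control-side neuron held 172 CPM. The log2 ratio to the control side was -3.65 in Atf3-high and -2.05 in Atf3-low neurons. Gfra3 had no count in the 14 control-side and 21 Atf3-low neurons. In Atf3-high neurons it reached 43.6 CPM, was at 0 in 5 of 12, was above 10 CPM in 4 and had 85 summed counts. Their summed level was 36.1-fold that of a floor of 3 counts over the control side, a point value and not a lower limit. By exact intervals the summed level was 8.19 to 12.7 CPM, against 0 to 0.35 CPM on the control side.

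Ngfr was again lowest in Atf3-high neurons at day 7. They ran from 5.22 to 362 CPM with a median of 72.5 and a mean of 111 ± 105, against 0 to 2402 CPM (median 715, mean 877 ± 816) on the control side and 94.9 to 2412 CPM (median 637, mean 782 ± 600) in Atf3-low neurons. The log2 ratio of Atf3-high to control-side neurons was -2.97, and it stayed between -3.28 and -2.81 under the 12 alternatives tried. Atf3-low and control-side neurons overlapped almost wholly, with a log2 ratio of -0.17. Calca, at 2482, 3658 and 85.0 CPM in control-side, Atf3-low and Atf3-high neurons, was again lowest in the same group, and Adcyap1 was again highest there, at 421 CPM against 2.71 CPM on the control side.

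Ntrk3 at day 7 had a control-side median of 5.13 CPM, with 1 neuron at 758 and the next at 75.2 CPM, and medians of 119 and 145 CPM in Atf3-low and Atf3-high neurons. It was above 10 CPM in 42.9% of control-side neurons (17.7% to 71.1%), 71.4% of Atf3-low (47.8% to 88.7%) and 75.0% of Atf3-high neurons (42.8% to 94.5%), and these intervals overlap. The log2 ratio of the means to the control side was 1.29 and 0.96, and the former became -0.87 among neurons with P2rx3 at 100 CPM or more. Pvalb, a proprioceptor gene, was above 10 CPM in 1 of 14 control-side neurons and in 17 of 33 SNT-side neurons. Ntrk2 had medians of 116, 115 and 152 CPM, Bdnf 45.3, 25.1 and 25 CPM, and Sort1 13.2, 23.7 and 30.7 CPM in control-side, Atf3-low and Atf3-high neurons. In these 3 genes the groups overlapped over most of their range.

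**Figure D3:**
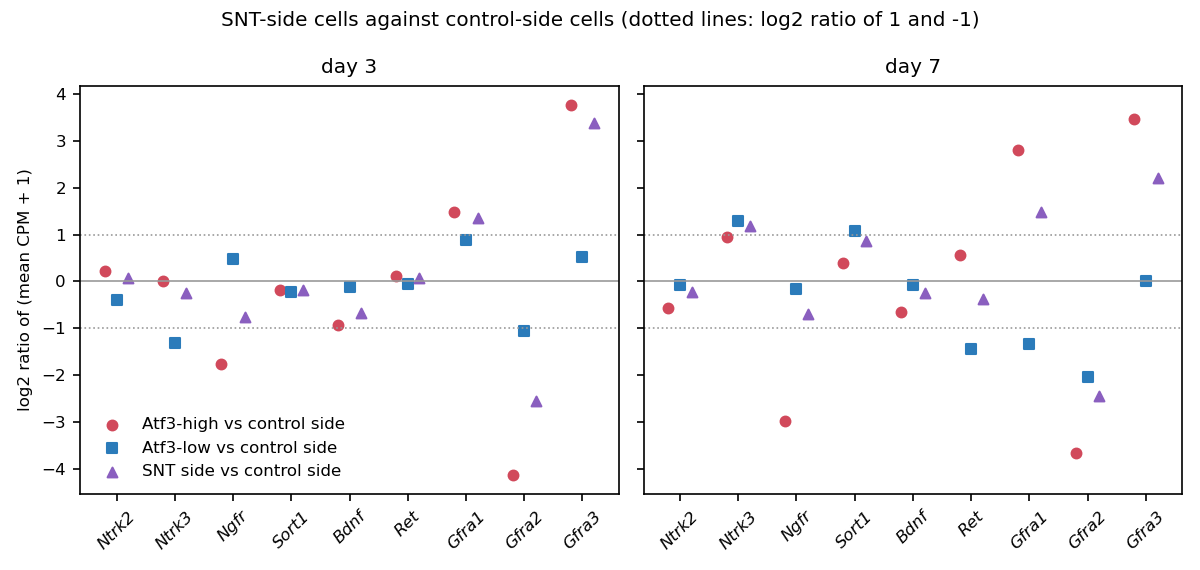
log2 ratio of the mean CPM + 1 of SNT-side neurons to control-side neurons for the 9 genes at day 3 (left) and day 7 (right); circles are Atf3-high, squares Atf3-low and triangles all SNT-side neurons, which share the control-side neurons, and dotted lines mark 1 and -1. In Atf3-high neurons Gfra1 and Gfra3 are above 1 and Gfra2 and Ngfr below -1 at both days, with values from -4.14 to 3.78.

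The co-receptor gene with the highest CPM per kb was taken as the leading one in each neuron, whatever its level. No co-receptor gene was above 10 CPM in 1 of 11 Atf3-low neurons at day 3 and in 3 of 21 at day 7, so their leading gene rests on few counts. At day 3 Gfra2 led in 10 and Gfra1 in 7 of the 18 control-side neurons, and Gfra3 in 1. In Atf3-low neurons the counts were 5 for Gfra2, 5 for Gfra1 and 1 for Gfra3. In the 30 Atf3-high neurons Gfra2 led in none, which allows a share of up to 10.0% by a floor of 3 cells and 11.6% by the exact interval, Gfra3 in 16 (53.3%, 34.3% to 71.7%) and Gfra1 in 14. At day 7 Gfra1 led in 12 of 14 control-side, 14 of 21 Atf3-low and 12 of 12 Atf3-high neurons, Gfra2 in the others, and Gfra3 in none. Ret was joined above 10 CPM by Gfra3 in 4 of 18 control-side, 2 of 11 Atf3-low and 23 of 30 Atf3-high neurons at day 3, and by Gfra1 in 16, 9 and 28.

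**Figure D4:**
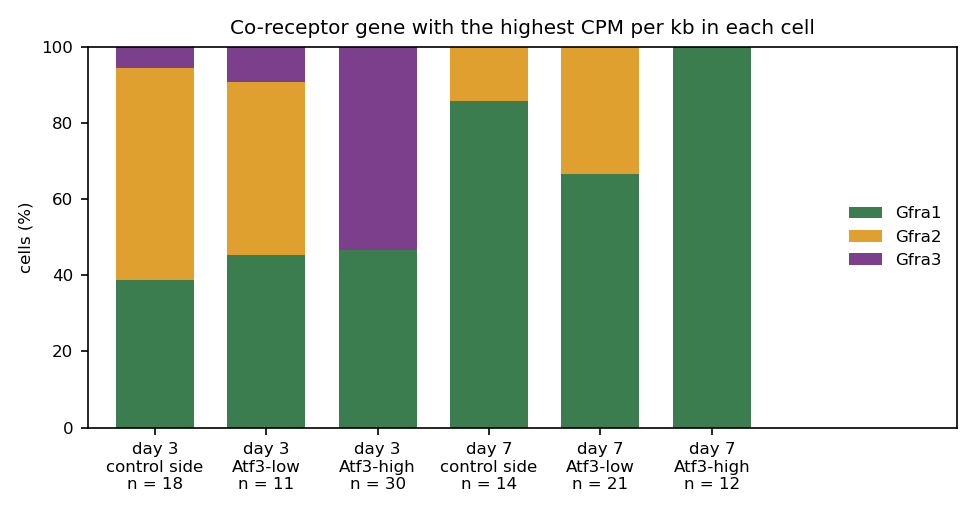
Share of neurons (percent) in which Gfra1, Gfra2 or Gfra3 had the highest CPM per kb, by day and group, with the number of neurons under each bar. Gfra2 led in 10 of 18 control-side neurons at day 3 and in 0 of the 30 and 12 Atf3-high neurons.

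P2rx3, an ion channel gene of nonpeptidergic nociceptors, was at 100 CPM or more in 12 control-side, 7 Atf3-low and 15 Atf3-high neurons at day 3, a range chosen after the data were seen. Within it Gfra2 had means of 559 ± 449, 247 ± 310 and 28.5 ± 32.1 CPM (SD over cells) and Gfra3 had 17.3 ± 43.9, 95.9 ± 241 and 901 ± 866 CPM. The log2 ratio of Atf3-high to control-side neurons within this range was -4.25 for Gfra2 and 5.63 for Gfra3, against -4.14 and 3.78 over all neurons, and the range held both control-side neurons with high Th. Only 6 of its 12 control-side neurons held 100 CPM or more of Mrgprd. Others reached 12440 CPM of Calca or 1361 CPM of Nefh, so the range mixed neuron classes. Ret held there at 812 ± 373, 620 ± 333 and 830 ± 224 CPM. In Atf3-high neurons the Gfra1 mean was higher outside this range, at 695 ± 491 CPM in the 15 other neurons against 277 ± 319 CPM within it. In control-side neurons its means were 169 CPM within and 180 CPM outside, and its medians were 112 and 29.2 CPM. Atf3-low neurons had means of 306 and 346 CPM.

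Of 63 other genes of these pathways in the tables, 50 were tested in the pools, and 8 had risen and 7 had fallen, beside 8.85% and 7.1% of all genes tested. Their median log2 change was -0.10. The ligand genes were nearly absent: only Ntf3, the ligand gene of TrkC, was tested among 7, with no count in the 3 SNT-side libraries and 0 to 13.6 CPM on the control side. Among 9 other receptor genes tested, Sorcs3, a relative of Sort1, rose by a log2 change of 2.04 (SE 0.40, adjusted p = 0.000106). Among 22 adaptor genes 5 rose and 3 fell. Grb2, which links Trk and Ret to Ras, rose from 45.3 ± 10.2 to 136 ± 8.92 CPM, and Shc2 from 51.4 ± 13.9 to 142 ± 8.98 CPM. Rapgef1 and Ripk2, which act downstream of Trk receptors and p75, rose by log2 changes of 1.48 and 2.08. Pik3r1, a regulatory subunit of PI3 kinase, fell by 1.32 and Ngfrap1, a p75-associated protein gene, fell by 1.28 on the log2 scale. Of 6 genes that process proneurotrophins, Pcsk1 and Plat rose by log2 changes of 1.70 and 1.66.

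Of 12 genes of ERK kinases, their transcriptional targets and their feedback inhibitors, none rose and 3 fell. Spry4, an inhibitor of receptor tyrosine kinase signalling, fell, with a log2 change of -3.47, an SE of 0.89 and an adjusted p of 0.00274. Dusp6, an ERK phosphatase gene, fell by 1.40 (SE 0.31, adjusted p = 0.000483), and Etv5, a transcription factor gene induced by ERK, fell by 1.38 (SE 0.26, adjusted p = 6.06e-05) on the log2 scale. The kinase gene Mapk3 had a log2 change of 0.09 and did not pass. In single neurons Etv5 had means of 231, 258 and 11.7 CPM in control-side, Atf3-low and Atf3-high neurons at day 3 and of 181, 216 and 15.4 CPM at day 7. Spry4 had 31.5, 12.5 and 0.79 CPM at day 3 and 27.7, 26.5 and 0.10 CPM at day 7. Dusp6 had 21.9, 27.8 and 15.2 CPM at day 3 and 14.7, 9.78 and 7.83 CPM at day 7. Etv5 and Spry4 were low in the Atf3-high neurons of both days. Ret had means of 688 and 635 CPM in those neurons, against 633 and 430 CPM on the control side. A link between Ret and these genes was not tested. Grb2 and Shc2 had means of 142 and 142 CPM in Atf3-high neurons of day 3, against 62.7 and 55.2 CPM on the control side. For the 12 pathway genes named by the size of their pooled change, Atf3-high and control-side means were compared. They differed in the pooled direction for 12 at day 3 and 8 at day 7. A difference of any size was counted, and the same share over all genes changed in the pools was not computed. At day 3 the means were close for Sorcs3 (15.1 against 12.6 CPM) and Rapgef1 (35.5 against 29.7 CPM). By medians Pik3r1 went the other way there (72.6 against 70.3 CPM). At day 7 Pik3r1 (89.2 against 41.03 CPM) and Ngfrap1 (102 against 53.3 CPM) were higher and Pcsk1 (56.5 against 88.2 CPM) and Sorcs3 (33.8 against 50.6 CPM) lower.

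The genes most like each member over the 59 day 3 neurons, by Spearman rho among genes of at least 10 CPM, differed by member. For Gfra3 they were Sbno2 (0.80), Itga7 (0.80) and Cttn (0.77), with 0.52, 0.54 and 0.55 over the 47 day 7 neurons. For Gfra1 they were Jak1 (0.68), Cyp4b1 (0.64) and Mdga1 (0.60), with 0.47, 0.73 and 0.67 at day 7. For Gfra2 they were Asap1 (0.76), Lrrc75b (0.74) and 1810041L15Rik (0.72), with 0.40, 0.25 and 0.17 at day 7. For Ntrk2 they were Slc35f1 (0.86), Cyp2j6 (0.86) and the glial marker Apoe (0.86), with 0.21, 0.39 and 0.30 at day 7. For Ntrk3 they were Atp8a2 (0.78), Amph (0.72) and Vamp1 (0.72), with 0.32, 0.48 and 0.44 at day 7, and for Ngfr Map7d2 (0.80), Resp18 (0.79) and Cdh4 (0.78), with 0.22, 0.27 and 0.30. For Ret, Bdnf and Sort1 the highest values were 0.68 (H2afy), 0.65 (Rtca) and 0.55 (Myo1d), with -0.37, -0.11 and -0.050 at day 7. Among the members, Ret and Ngfr had a rho of -0.66 at day 3 and -0.64 at day 7. The cells of a day share handling and differ in depth, and these values carry no test.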

How the data were processed

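Per the labels and the study's methods, single neurons of L3 to L5 ganglia were picked by hand and amplified with Smart-seq2, day 3 and pooled libraries were read as 50 base single ends and day 7 libraries as 75 base paired ends. Per the submitters' processing notes, the authors used CASAVA 1.8.2, Bowtie2 and RSEM with mm9. The deposited tables are named TPM, but their values are expected counts, because whole numbers made up 60.7% to 93.6% of each library's nonzero values and the libraries' totals ran from 223967 to 2003817, and the count test that the design foresaw was used. CPM is a value over its library total, scaled to 1000000. Side and day came from the sample titles. The protocol label of the day 7 neurons names both days.

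Expected counts of the pools, rounded, were tested with edgeR 4.0.16 in R 4.3.3 (quasi-likelihood, TMM scaling, a mean of at least 1 CPM, Benjamini-Hochberg adjustment over all genes tested), checked on simulated data. DESeq2 1.42.0 and limma 3.58.1 were alternatives. SNT-side minus control-side is the direction of every change. Libraries of 1 pool differed by more than sampling noise and were kept as 3. Neurons were compared without a test, by mean CPM with a pseudocount of 1 CPM. Exact intervals at 95% and floors of 3 counts cover counting error only, since no molecular identifiers were used. Scripts ran in Python 3.11.15 with numpy 2.4.6, pandas 2.3.3 and scipy 1.17.1. Gene coordinates are from the GENCODE annotation of GRCm38, not from mm9.

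The 9 genes and all gene lists were chosen with earlier results of these data known. Named besides the 9 are the pathway genes changed in the pools (at most 12, by size of change, where the higher side had 10 CPM or more), the 3 genes most correlated with each member over day 3 neurons, Atf3, class markers and other markers by summed level. Ntf3, Mapk3 and single glial markers were named after their values were seen. Spike-in RNA was not analysed here, and a few genes of the lists are not reported here by name.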

Additional observations from a re-analysis of the deposited data

Results flagged for a closer look

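The 11 day 3 cells that the authors removed as outliers entered the group comparisons of neurons in 1 alternative only. Ntrk2 had a median of 1641 CPM in the 7 of them from the SNT side (424 to 1852 CPM) and of 1026 CPM in the 4 from the control side (827 to 1362 CPM), and all 11 were above 371 CPM, the highest kept control-side neuron. In the same cells the summed glial markers were at 40592 to 100100 CPM and the summed neuronal markers at 224 to 3551 CPM, against at most 14492 CPM of glial markers and at least 6130 CPM of neuronal markers in any kept neuron. Sort1 was above every kept control-side neuron in 3 of the 4 control-side outliers and in none of the 7 SNT-side ones, with 56.2 to 90.8 CPM and 24.2 to 64.2 CPM. Ret was at 0 to 234 CPM in the 11 cells, and Ngfr at 3.05 to 547 CPM.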

How the results depend on the processing

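In the pools, all 7 member calls (Gfra1, Gfra2, Gfra3, Bdnf, Ntrk3, Ngfr, Sort1) held and Ntrk2 and Ret stayed uncalled under every alternative, and each of the 9 genes kept its sign. The genes changed in all numbered 2157 in the main fit, 1761 by DESeq2 (525 genes without an adjusted p), 2060 by limma, and 1879 to 2150 without each library in turn, where the member count was 7 to 7 each time. Scaling by library size alone put 43.7% of the changed genes higher on the SNT side, against 55.4% with TMM, and the median log2 change of all genes at -0.14. The library number as a replicate block gave 2009 genes and 7 members. The numbers did not pair the libraries: the deviations of same-numbered libraries correlated at 0.06, -0.02 and -0.01.

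In the neurons, 883 of 918 alternative log2 ratios of a member moved by less than 1 SD over cells, 22 moved by more and 13 with a main value beyond 1 turned sign. That SD is the spread of log2 levels between cells, a wide limit, so the 883 do not measure stability. Sign turns of ratios within 1 were sorted by the size of the move only. An example is Sort1 in SNT-side against control-side neurons at day 3, which turned in 7 of 12 alternatives. The number of members beyond a log2 ratio of 1 in SNT-side against control-side neurons at day 3 was 3 and became 5 at or below the median Nefh. In Atf3-low against control-side neurons at day 3 it was 2 and became 1 with a pseudocount of 10 CPM, upper-quartile scaling or Th under 100 CPM, 4 with medians, without the highest cells or with P2rx3 at 100 CPM or more, 5 above the median Nefh or at or below the median glial level, and 6 at or below the median Nefh. At day 7 it was 4 in Atf3-high neurons and became 7 at or below the median Nefh, and was 5 in Atf3-low neurons and became 3 with medians or an Atf3 limit of 1000 CPM. The 13 that turned sign, with their causes not tested, were these. In Atf3-high against control-side neurons at day 3, Ngfr (0.20) and Gfra1 (-0.37) turned at or below the median Nefh. In Atf3-low against control-side neurons at day 3, Ntrk3 turned at or below the median glial level (0.040) and Gfra2 above the median Nefh (0.94). In Atf3-high against Atf3-low neurons at day 3, Ntrk3 turned at or below the median Nefh (-1.62), with P2rx3 at 100 CPM or more (-1.04) and at or below the median glial level (-0.72). At day 7, Ntrk3 in SNT-side neurons turned with P2rx3 at 100 CPM or more (-1.13) and at or below the median glial level (-0.14), and Gfra1 with medians (-0.62) and above the median Nefh (-0.25). In Atf3-low neurons of day 7, Ntrk3 turned with P2rx3 at 100 CPM or more (-0.87) and Gfra1 with an Atf3 limit of 1000 CPM (0.72). Above the median Nefh at day 3, Gfra2 and Gfra3 in SNT-side neurons kept their sign at -0.19 and 0.58. Sign turns of ratios within 1 are not listed. The P2rx3, Th and glial settings were chosen after seeing the data, and strata with under 2 neurons in a group were left out. The alternative with the outlier cells applied to day 3 only, since no day 7 cell was an outlier.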
